A study of Mus musculus with 8 samples.

Results

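Secreted factors of the senescence-associated secretory phenotype and of inflammation were followed gene by gene in single-nucleus RNA sequencing of mouse gastrocnemius, a calf muscle, to find which nuclei held their transcripts. The 44 genes were given as a list, out of 30202 gene symbols in the 8 libraries, and were chosen with earlier results of these data known. They comprise 6 extracellular proteases and activators, 4 protease inhibitors, 6 insulin-like growth factor (IGF) binding proteins, 8 chemokines, 7 cytokines, 8 growth factors, and 5 adhesion, matrix and metabolic factors. All 44 were found, 35 of them with at least 200 UMIs over the 8 libraries and 9 with fewer. A UMI is a molecular barcode, so that copies of 1 captured transcript count once, and levels are given as CPM, a count scaled to a total of 1000000 UMIs over the nuclei in question.

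The mice were wild-type C57BL/6 and fell into 4 groups with 2 libraries each. Old mice were 20 months of age and Young mice 3 months. Running mice were 11 months at the start and ran on a treadmill over 2 months, and Sedentary mice were of that starting age without the training. In each group replicate 1 was made on the 10x Genomics platform and replicate 2 on the DNBelab C platform (the second set). Nothing states how many animals went into a library, so p-values measure only the spread between these libraries, which may be technical.

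The senescence-associated secretory phenotype is the set of proteases, IGF binding proteins, chemokines, cytokines and growth factors that cells in lasting cell cycle arrest release. The same proteins have other sources in healthy muscle, where fibro-adipogenic progenitors (FAPs, the resident mesenchymal cells) build and remodel the matrix, macrophages clear debris and recruit leukocytes, and vessels hold leukocytes through adhesion molecules. A transcript in a nucleus does not measure the secreted protein.

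Of 64803 nuclei kept, 47059 lay in the 10x set, at 23327640 to 44389777 UMIs a library, and 17744 in the second set, at 4765224 to 9088163. The 44 genes together held 212827 UMIs, 192649 of them in the 10x set. Classes were named from marker lists, and the defining markers were present in each class used here, with none of the 7 FAP markers at 0 in FAP-like nuclei of a 10x library. The unnamed share was 6.40% of nuclei for Old, 9.27% for Young, 13.7% for Running and 35.0% for Sedentary in the 10x set. Old replicate 2 stood apart, with 87.2% of its 4772 nuclei unnamed, against 34.8% in Young, 7.85% in Running and 5.69% in Sedentary of the same set. Macrophage-like and other immune classes were named in the 10x set alone, and 30 to 46 barcodes were shared between any pair of 10x libraries.

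FAP-like nuclei were the main source of these transcripts in the 10x set. They made up 18.9% of the nuclei and 15.1% of all UMIs but held 41.8% of the UMIs of the 44 genes. Type IIb-like nuclei, the myonuclei of the fastest fibres, held 22.8% of them with 33.5% of the nuclei. A class leads for a gene where its level is highest among named classes with at least 50 nuclei and at least 20 UMIs of that gene, which 41 genes allowed. By this rule FAP-like nuclei led for 13 genes, macrophage-like for 9, tenocyte-like for 5 and adipocyte-like nuclei for 4. Timp1 and Cxcl1 (led by FAP-like) and Tnf (led by macrophage-like nuclei) had higher levels in a class with fewer than 20 of their UMIs. Pericyte-like, endothelial-like and Schwann cell-like nuclei led for 2 genes each, and B cell-like, T cell-like, muscle stem cell-like and neuromuscular junction-like nuclei for 1 each. Without Young replicate 1 another class led for Timp2, Igfbp5, Igfbp6 and Il33, all of them tenocyte-led, and for Tgfb1. The leading class held over 50% of a gene's UMIs for 17 genes, and its level was at least 2-fold above the next class for 12. For 16 of the 41 the same class was highest in every 10x library that held it. In the second set 24 of these genes had a leading class, the same as in the 10x set for 4 of them. No nuclei of that set were named macrophage-like, tenocyte-like, pericyte-like, Schwann cell-like, B cell-like or T cell-like. Genes led by those classes in the 10x set therefore could not match, and a low count of matches does not show disagreement for them. All these counts are descriptions without a test, since classes come from the same nuclei, though the 44 genes were left out of the clustering.

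**Figure D1:**
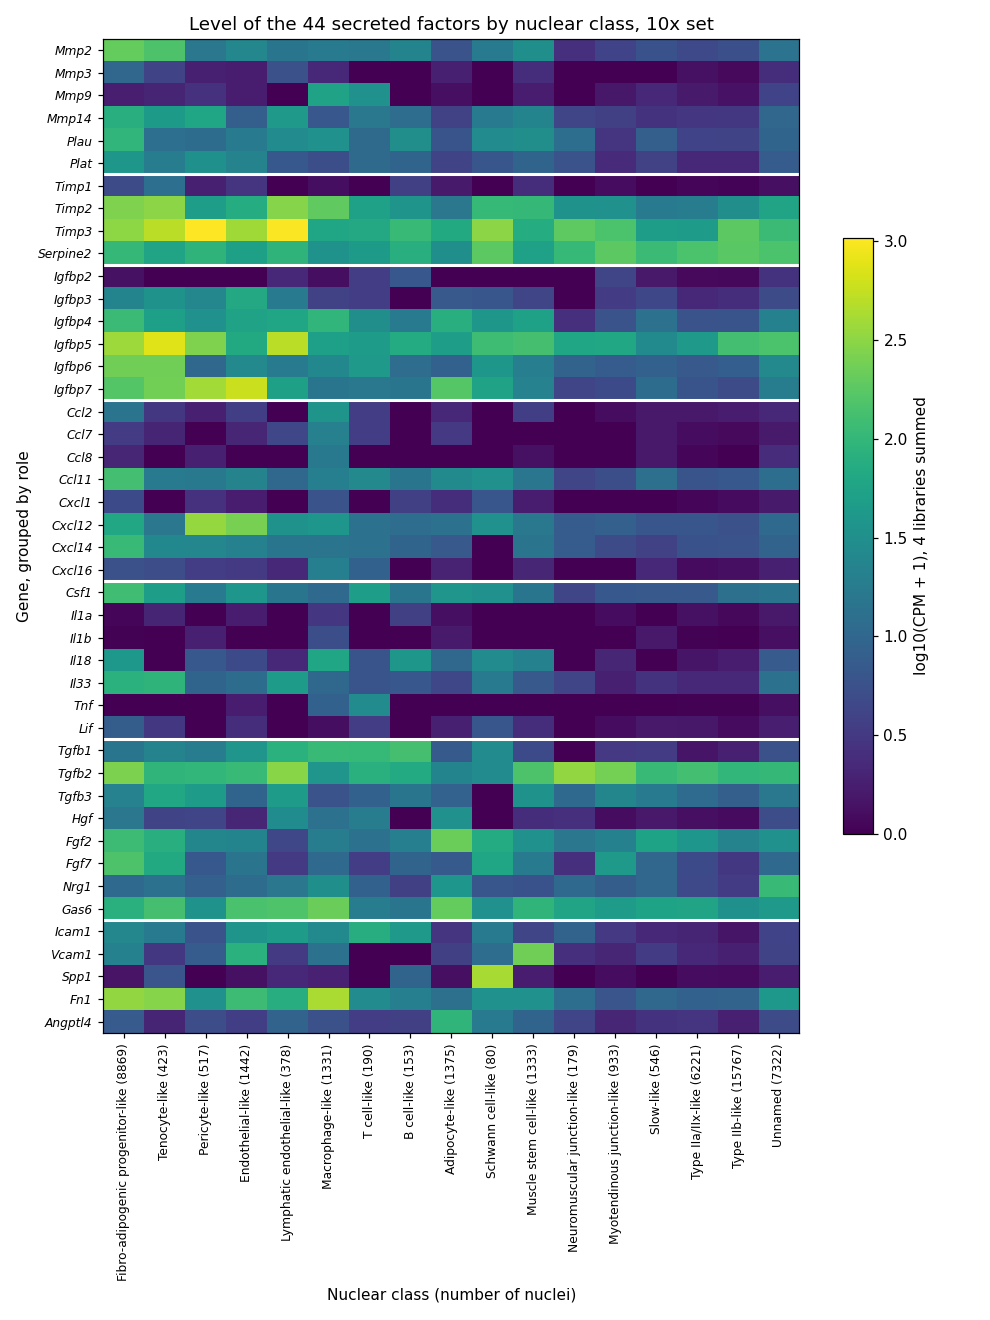
Level of each of the 44 genes (vertical axis, grouped by role) in each nuclear class of the 10x set (horizontal axis, with the number of nuclei), as the colour of log10(CPM + 1) over the 4 libraries summed. Among classes with at least 20 UMIs of the gene, FAP-like nuclei are highest for 13 genes and macrophage-like nuclei for 9, and Timp3 is highest in the pericyte-like (1040 CPM) and lymphatic endothelial-like (995 CPM) columns.

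FAP-like nuclei led for 5 of the 6 proteases, and macrophage-like nuclei for Mmp9. Mmp2, a gelatinase that cleaves basement membrane collagen, had whole-library levels of 53.6 CPM in Old against 44.02 in Young and 31.5 in Running against 9.59 for Sedentary (10x set), with 11.3 against 2.803 and 4.34 against 4.501 in the second set over all nuclei. Its level in FAP-like nuclei was 200.2 CPM, with 81.2% of its UMIs, against 150.2 in tenocyte-like and 4.38 in Type IIb-like nuclei. By library the FAP-like level was 198 for Old, 225 for Young, 195 for Running and 102 for Sedentary, and Sedentary was lowest. The 7 FAP markers were lowest there too, summing to 7528 CPM in Sedentary FAP-like nuclei against 11020 to 11640 in the other 10x libraries. The median depth of these nuclei was 1188 UMIs in Sedentary, against 1903 to 2668 in the others. Mmp14 encodes the membrane-bound protease that activates pro-MMP2, and it stood at 23.2 CPM in Old against 13.3 in Young and 16.2 in Running against 6.88 for Sedentary (10x set), with 10.5 against 3.03 and 4.201 against 4.72 in the second set. FAP-like nuclei led at 76.3 CPM, ahead of pericyte-like nuclei at 58.1. Plau, the urokinase that turns plasminogen into plasmin, stood at 31.7 CPM in Old against 20.2 in Young and 14.01 in Running against 9.59 for Sedentary (10x set), with 4.37 against 3.7 and 3.501 against 3.22 in the second set. Plat, the tissue-type plasminogen activator, stood at 14.8 CPM in Old against 8.55 in Young and 5.45 in Running against 4.26 for Sedentary (10x set), with 6.36 against 3.7 and 3.36 against 1.29 in the second set. Both were led by FAP-like nuclei, Plau at 95.3 CPM (macrophage-like 32.4) and Plat at 38.1 CPM (pericyte-like 31.5). The stromelysin gene Mmp3 was low, at 2.44 CPM in Old against 2.05 in Young and 1.403 in Running against 1.204 for Sedentary (10x set), with 6.16 against 0.673 and 0.5601 against 0 in the second set. FAP-like nuclei held 73.7% of its UMIs. Mmp9, the gelatinase of myeloid cells, stood at 3.63 CPM in Old against 2.08 in Young and 1.31 in Running against 1.72 for Sedentary (10x set), with 7.75 against 2.47 and 5.88 against 8.14 in the second set. Macrophage-like nuclei held 57.01% of its UMIs at 53.4 CPM (44.5 for Old, 67.1 for Young, 56.7 for Running and 57.2 for Sedentary), and T cell-like nuclei followed at 32.8. All 6 genes were higher in Old than in Young in both library sets, as were 53% of all genes. Mmp3 (4 against 0 UMIs in the second set), Plau and Plat were higher in Running than in Sedentary in both, as were 25.1% of genes. Within their leading class in the 10x set, Mmp2, Mmp3 (8.76 against 11.1 CPM) and Mmp9 were lower in Old than in Young. Mmp14, Plau and Plat were higher in Old there.

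The 4 protease inhibitors had 4 different leading classes. Timp2, an inhibitor of metalloproteinases that also takes part in pro-MMP2 activation, stood at 105 CPM in Old against 99.9 in Young and 53.3 in Running against 32.4 for Sedentary (10x set), with 40.1 against 29.7 and 28.6 against 25.9 in the second set. Tenocyte-like nuclei had the highest level, 311 CPM (95% Poisson interval 276 to 349, counting error only, as for all intervals here), but FAP-like nuclei, at 269, held 53.3% of the UMIs. Timp2 overlaps Cep295nl on the same strand, so reads of the pair may not be separable. Old was the highest library for Timp2 in both sets. Timp3, the matrix-bound inhibitor, stood at 219 CPM in Old against 246 in Young and 118 in Running against 112 for Sedentary (10x set), with 88.2 against 77.7 and 82.1 against 77.6 in the second set. It was highest in pericyte-like nuclei at 1040 CPM and lymphatic endothelial-like nuclei at 995, followed by tenocyte-like nuclei at 509, and Type IIb-like nuclei at 180.4 held 40.6% of its UMIs. Timp3 overlaps Syn3 on the opposite strand, and whether the counting used strand is not stated. Serpine2, or protease nexin 1, inhibits thrombin and plasminogen activators, and it stood at 108 CPM in Old against 208 in Young and 120.2 in Running against 103 for Sedentary (10x set), with 69.1 against 124 and 146 against 164 in the second set. The Young library was the highest of the 10x set, and Old the lowest of the second. Its levels were close in several classes, at 179.7 CPM in Schwann cell-like (124 to 252), 179.7 in myotendinous junction-like, 174 in Type IIb-like and 145 in Type IIa/IIx-like nuclei. Type IIb-like nuclei held 50.8% of the UMIs, so that for Serpine2 muscle fibres themselves were the largest source. Serpine2 was lower in Old than in Young in both sets, the only one of the 44 genes of which this holds, against 9.85% of all genes. Timp1, the inducible inhibitor, had 144 UMIs in all, and FAP-like nuclei held 68.3% of those in the 10x set, while 11 UMIs put tenocyte-like nuclei at 11.6 CPM.

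The IGF binding proteins, which carry IGFs and set their access to the receptor, divided by class. Igfbp5 stood at 114 CPM in Old against 287 in Young and 123 in Running against 45.4 for Sedentary (10x set), with 71.9 against 64.9 and 76.3 against 118 in the second set. Young was the highest 10x library and Sedentary the lowest, whereas Sedentary was the highest of the second set. Tenocyte-like nuclei led at 746 CPM, lymphatic endothelial-like nuclei followed at 512 and FAP-like nuclei at 372, the last holding 36.9% of its UMIs. The tenocyte-like level rested on Young, with 586 of 705 UMIs, and was 123 for Old, 1060 for Young, 433 for Running and 0 for Sedentary, where Sedentary had 8 such nuclei. Type IIb-like nuclei, at 129.6 CPM, held a further 34.2%, whereas Type IIa/IIx-like nuclei stood at 41.4. Igfbp6, which prefers IGF-II, stood at 69.2 CPM in Old against 55.5 in Young and 32.4 in Running against 13.5 for Sedentary (10x set), with 9.53 against 7.06 and 11.2 against 11.1 in the second set. Its levels in tenocyte-like (229.5 CPM, 200 to 262) and FAP-like nuclei (229 CPM, 223 to 236) could not be separated, and the latter held 76.4% of its UMIs. Igfbp4, cleaved by pappalysins to free IGFs, stood at 59.95 CPM in Old against 28.2 in Young and 15.2 in Running against 18.2 for Sedentary (10x set), with 12.1 against 5.72 and 4.48 against 5.36 in the second set. Over the summed libraries FAP-like nuclei led at 112 CPM, with 54.4% of its UMIs, and macrophage-like nuclei stood at 96.3. By library the FAP-like level was 162 for Old, 104 for Young, 56.2 for Running and 97.1 for Sedentary, and the macrophage-like level 99.4 for Old, 117 for Young, 56.7 for Running and 128 for Sedentary. The FAP-like level was thus above the macrophage-like in Old alone, and without Old replicate 1 FAP-like nuclei no longer led for Igfbp4. Igfbp7, secreted by endothelium into the vessel wall, stood at 61.7 CPM in Old against 73.5 in Young and 39.03 in Running against 26.4 for Sedentary (10x set), with 52.6 against 24.2 and 22.96 against 13.9 in the second set. Igfbp3, the main IGF carrier of the blood, stood at 7.04 CPM in Old against 6.097 in Young and 9.16 in Running against 2.93 for Sedentary (10x set), with 3.18 against 3.59 and 3.78 against 3 in the second set. Endothelial-like nuclei led for both in all 4 libraries of the 10x set, Igfbp7 at 594 CPM (524 for Old, 991 for Young, 485 for Running and 399.6 for Sedentary) and Igfbp3 at 64.5 CPM (44.99 for Old, 105 for Young, 83.5 for Running and 31.8 for Sedentary). Most UMIs of neither gene lay there, since endothelial-like nuclei held 20.6% of Igfbp7 and 17.3% of Igfbp3, and FAP-like nuclei 46.2% and 49.2%. Igfbp2 had 132 UMIs, 43 of them in Old replicate 2. In the 10x set 12 of its UMIs lay in myotendinous junction-like nuclei, at 3.27 CPM. Igfbp2, Igfbp4 and Igfbp6 were higher in Old than in Young in both sets, as were 53% of all genes. Igfbp5 and Igfbp7 were lower in Old in the 10x set and higher in the second.

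The chemokines split between FAP-like nuclei, macrophage-like nuclei and vessels. Ccl11, or eotaxin, attracts eosinophils, and it stood at 54.8 CPM in Old against 27.3 in Young and 12.9 in Running against 6.75 for Sedentary (10x set), with 3.97 against 2.13 and 3.501 against 3.43 in the second set. FAP-like nuclei held 72.7% of its UMIs at 129.6 CPM, 3.97-fold above the next class, at 169 for Old, 145 for Young, 70.7 for Running and 68.6 for Sedentary. Old and Young lay above Running and Sedentary in those nuclei. Cxcl14, a chemokine of fibroblasts and epithelia, stood at 31.1 CPM in Old against 25.7 in Young and 19.6 in Running against 6.88 for Sedentary (10x set), with 3.58 against 2.58 and 8.401 against 4.501 in the second set. FAP-like nuclei led at 110.3 CPM, 4.53-fold above tenocyte-like nuclei. Cxcl12, which holds CXCR4-bearing cells in their niche, stood at 39.2 CPM in Old against 22.6 in Young and 12.2 in Running against 16.95 for Sedentary (10x set), with 19.5 against 15.7 and 10.1 against 7.93 in the second set. Its level was highest in pericyte-like nuclei at 343 CPM and endothelial-like nuclei at 253, but FAP-like nuclei, at 61.5, held 40.5% of its UMIs, against 12.3% in pericyte-like nuclei. Ccl2, the monocyte attractant, stood at 8.998 CPM in Old against 2.56 in Young and 0.747 in Running against 1.68 for Sedentary (10x set), with 0.596 against 0.448 and 0.28 against 0.214 in the second set. Macrophage-like nuclei had the higher level, 35.6 CPM against 13.6 in FAP-like nuclei, but the more numerous FAP-like nuclei held 57.2% of the UMIs. Ccl2 sat in few nuclei, since its 215 UMIs in FAP-like nuclei of the Old 10x library came from 65 of 3382 nuclei, with up to 30 in 1 nucleus. Cxcl16, a membrane-bound chemokine and scavenger receptor, stood at 2.34 CPM in Old against 1.897 in Young and 1.199 in Running against 0.688 for Sedentary (10x set), with 1.19 against 1.23 and 0.4201 against 0.214 in the second set, and macrophage-like nuclei led at 19.3 CPM with 28.1% of its UMIs, against 42.6% in FAP-like nuclei. Ccl7 (178 UMIs) and Ccl8 (121 UMIs), both monocyte attractants, were highest in macrophage-like nuclei in all 4 libraries, at 19.6 and 15.5 CPM. For Ccl7 in Running this rested on 2 UMIs in those nuclei, and for Ccl8 in Sedentary on 1. Cxcl1, a neutrophil attractant, had 164 UMIs, with 57.3% of those of the 10x set in FAP-like nuclei. The 4 CC chemokines are neighbours on chromosome 11 (GRCm38, plus strand), Ccl2 at 82035571 to 82037453, Ccl7 at 82045712 to 82047525, Ccl11 at 82057823 to 82062955 and Ccl8 at 82115185 to 82116799, yet Ccl11 was led by FAP-like and the other three by macrophage-like nuclei. Of the 8 chemokines, Cxcl16 alone was not higher in Old than in Young in both sets, where 53% of all genes were higher in both. In the second set the order rested on few UMIs for some, such as Ccl2 with 3 in Old and 4 in Young, and Ccl11 with 20 and 19.

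Among the cytokines, Csf1, Il33 and Lif belonged to mesenchymal classes and the classical inflammatory genes were near the detection limit. Csf1, which maintains macrophages, stood at 38.6 CPM in Old against 42.3 in Young and 21.2 in Running against 10.5 for Sedentary (10x set), with 10.1 against 6.73 and 8.401 against 7.93 in the second set. FAP-like nuclei led in all 4 libraries, at 124 CPM and 62.9% of the UMIs, and Type IIb-like nuclei stood at 12.02. Il33, a nuclear alarmin, stood at 22.7 CPM in Old against 19.9 in Young and 12.9 in Running against 6.58 for Sedentary (10x set), with 17.3 against 4.04 and 3.92 against 3.86 in the second set. It was at 89.9 CPM in tenocyte-like nuclei (71.8 to 111) and 82.7 in FAP-like nuclei (78.9 to 86.5), which held 76.2% of its UMIs. Il18, an inflammasome cytokine, stood at 13.96 CPM in Old against 10.5 in Young and 7.97 in Running against 4.302 for Sedentary (10x set), with 13.9 against 1.91 and 3.08 against 0.643 in the second set. Macrophage-like nuclei led at 60.1 CPM (63.4 for Old, 59.8 for Young, 64.8 for Running and 21.99 for Sedentary), but 62.6% of the UMIs lay in FAP-like nuclei at 39.97. Lif, of the interleukin 6 family, stood at 2.19 CPM in Old against 1.29 in Young and 1.22 in Running against 0.946 for Sedentary (10x set), with 5.56 against 0.336 and 0.14 against 0.429 in the second set, with 71.2% of its 10x UMIs in FAP-like nuclei. Tnf had 55 UMIs in all, and of its 10x UMIs 26 lay in macrophage-like nuclei (7.59 CPM, 4.96 to 11.1) and 11 in the 190 T cell-like nuclei (27.7 CPM, 13.9 to 49.6). No Tnf UMI was found in the 8869 FAP-like nuclei, which allows up to 0.167 CPM. Il1b had 49 UMIs, with 15 of the 30 in the 10x set in macrophage-like nuclei, and Il1a had 62 with no leading class. At these depths group differences in Tnf, Il1a and Il1b were not detectable.

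The growth factors had leading classes among immune, mesenchymal, fat and muscle nuclei. Tgfb2 stood at 189 CPM in Old against 105 in Young and 98.9 in Running against 135 for Sedentary (10x set), with 64.4 against 75.3 and 75.6 against 78.9 in the second set. It was at 333 CPM in neuromuscular junction-like (288 to 382), 305 in lymphatic endothelial-like (269 to 344) and 261 in FAP-like nuclei (254 to 268), and the level in Type IIb-like nuclei was 99.3. Type IIb-like and FAP-like nuclei held near-equal shares of its UMIs, 30.6% and 30.3%. Tgfb1, the isoform of immune cells, stood at 12.7 CPM in Old against 8.5 in Young and 4.82 in Running against 5.64 for Sedentary (10x set), with 12.7 against 2.13 and 2.94 against 3.22 in the second set. It was led by B cell-like (132 CPM, 97.6 to 176) and macrophage-like nuclei (106 CPM, 95.3 to 117), whose intervals overlap, and which held 4.09% and 30.95% of the UMIs. Tgfb3 stood at 14.2 CPM in Old against 9.16 in Young and 12.6 in Running against 16.5 for Sedentary (10x set), with 25.6 against 17.4 and 33.5 against 18.4 in the second set, with tenocyte-like nuclei highest at 61.3 CPM but FAP-like nuclei holding 24.8% of the UMIs. Fgf7, the keratinocyte growth factor of mesenchymal cells, stood at 29.5 CPM in Old against 43.2 in Young and 18.9 in Running against 14.3 for Sedentary (10x set), with 22.5 against 9.87 and 6.58 against 2.57 in the second set. FAP-like nuclei held 80.5% of its UMIs at 147 CPM. Young was the highest 10x library for Fgf7 and Old the highest of the second set. Fgf2, which drives myoblast proliferation, stood at 56.99 CPM in Old against 44.98 in Young and 43.5 in Running against 48.8 for Sedentary (10x set), with 29.4 against 26.2 and 14 against 17.2 in the second set, and adipocyte-like nuclei led in all 4 libraries at 215 CPM against 116 in FAP-like nuclei, which held 36.3% of its UMIs. Hgf, which activates muscle stem cells through MET, stood at 6.298 CPM in Old against 4.301 in Young and 4.37 in Running against 4.17 for Sedentary (10x set), with 30.2 against 3.92 and 1.54 against 1.07 in the second set. Adipocyte-like nuclei led at 32.4 CPM and FAP-like nuclei, at 14.7, held 45.96% of the 10x UMIs, but in Old replicate 2 unnamed nuclei held 138 of the 152 Hgf UMIs. Fgf2 and Hgf share parts of their strand with noncoding gene models. Gas6, the ligand of the TAM receptors by which macrophages take up dying cells, stood at 76.1 CPM in Old against 66.99 in Young and 48.8 in Running against 47.8 for Sedentary (10x set), with 52.8 against 91.6 and 67.2 against 81.4 in the second set. Macrophage-like (220.3 CPM) and adipocyte-like nuclei (201 CPM) were highest, and Type IIb-like nuclei held 20.8% and FAP-like nuclei 20.4% of the UMIs. Without Old replicate 1 macrophage-like nuclei no longer led for Gas6.

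Most UMIs of Nrg1 lay outside any named class. This ERBB ligand of axons and Schwann cells stood at 24.1 CPM in Old against 8.73 in Young and 10.8 in Running against 50.9 for Sedentary (10x set), with 359.7 against 48.5 and 20.6 against 14.8 in the second set. Unnamed nuclei held 69.9% of its UMIs in the 10x set. In Old replicate 1, 545 of the Nrg1 UMIs (58.1%) came from 18 nuclei of an unnamed cluster led by Kcnip4, Nrg3 and Nrxn3, at 6153 CPM, and the same cluster held 119 UMIs (25.0%) in 8 nuclei of Running replicate 1. In Sedentary replicate 1, 45.1% of the Nrg1 UMIs lay instead in 778 nuclei of a cluster led by Gm10800 and Gm10801, at 511 CPM, and 12.5% in 1261 nuclei of one led by Cemip and Cntnap5b. In Old replicate 2 a cluster of 3160 nuclei led by Galntl6, Skint6 and Gm45740 held 85.8% of them. Nrg1 spans 1069 kb of chromosome 8 (GRCm38, 31814551 to 32884029), the longest of the 44 genes, and the leading genes of 3 of these 4 clusters had a median length above 300 kb. A median above 300 kb was itself a rule by which a cluster got no name. The unnamed share of Nrg1 is therefore not independent of that rule, and naming without it was not tested. The part of these clusters in the library differences of Nrg1 and Hgf was not tested.

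The adhesion, matrix and metabolic factors had 5 different leading classes. Fn1, fibronectin, stood at 121 CPM in Old against 99.8 in Young and 47.5 in Running against 21.6 for Sedentary (10x set), with 38.1 against 20.7 and 11.3 against 10.7 in the second set. Old was the highest and Sedentary the lowest library in both sets. Macrophage-like nuclei had the higher level in all 4 libraries of the 10x set, 429 CPM against 338 in FAP-like nuclei, while the latter held 66.4% of the UMIs. In macrophage-like nuclei of the Old 10x library, 727 Fn1 UMIs came from 97 of 574 nuclei, with up to 50 in 1 nucleus. Vcam1, the leukocyte and stem cell adhesion molecule, stood at 12.5 CPM in Old against 14.5 in Young and 7.92 in Running against 4.26 for Sedentary (10x set), with 11.9 against 4.37 and 2.52 against 3.22 in the second set. It was highest in muscle stem cell-like nuclei at 227 CPM (164 for Old, 282 for Young, 236 for Running and 102 for Sedentary), 2.698-fold above endothelial-like nuclei. Icam1, its counterpart on activated endothelium, stood at 10.2 CPM in Old against 5.77 in Young and 5.84 in Running against 3.61 for Sedentary (10x set), with 9.14 against 3.7 and 2.94 against 3.86 in the second set. T cell-like nuclei led at 75.7 CPM on 30 UMIs (51.1 to 108), followed by lymphatic endothelial-like nuclei at 44.7, but held 3.11% of its UMIs against 54.7% in FAP-like nuclei (at 23.9 CPM), and they no longer led without Old replicate 1. Angptl4, an inhibitor of lipoprotein lipase, stood at 12.2 CPM in Old against 4.402 in Young and 3.78 in Running against 5.38 for Sedentary (10x set), with 6.16 against 0.673 and 2.38 against 0.643 in the second set. Adipocyte-like nuclei held 59.6% of its UMIs, at 167 for Old, 73.3 for Young, 60.97 for Running and 53.5 for Sedentary. The Old library was the highest of the 4, as it was over all nuclei in both sets. Spp1, osteopontin, had 151 UMIs, of which 75 lay in Schwann cell-like nuclei of Old replicate 1, in 9 of 37 nuclei and with up to 19 in 1 nucleus (median depth 2228 UMIs), whereas 10 of 3688 Type IIb-like nuclei of that library (median depth 3671.5 UMIs) held 1 each. The 7 Schwann cell-like nuclei of Young replicate 1 held none.

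FAP-like nuclei were 3 clusters that carried different secreted factors. They are called by their leading genes, a Col6a6/Hmgcll1 cluster of 3594 nuclei, a Dpp4/Pi16 cluster of 2351 and a Cdh11/Lepr cluster of 2924, and the levels that follow are in this order over the 4 libraries of the 10x set. The Dpp4/Pi16 cluster was highest for Fn1 at 148, 813 and 161 CPM, for Igfbp5 at 107, 668 and 438 CPM, and for Il18 at 17.2, 105 and 11.6 CPM. It was also highest for Fgf2 at 58.6, 236 and 82.7 CPM, for Tgfb2 at 207, 420 and 190 CPM, for Timp2 at 198, 421 and 224 CPM and for Plat at 29.4, 74.4 and 17.5 CPM. Dpp4 and Pi16 mark fibroblasts that are held to be progenitors of other fibroblasts. The Col6a6/Hmgcll1 cluster was highest for Cxcl14 at 214, 14.9 and 67.7 CPM, for Ccl11 at 185, 116 and 76.3 CPM and for Plau at 142, 74.1 and 57.5 CPM. The Cdh11/Lepr cluster was highest for Gas6 at 73.95, 20.9 and 144 CPM, for Mmp3 at 2.199, 5.51 and 19.7 CPM and for Fgf7 at 120.4, 120.3 and 200.3 CPM. The 2 chemokines and Fn1 thus had their highest levels in different clusters. In each of the 4 libraries the cluster named was highest for the 7 genes of Dpp4/Pi16 and the 3 of Col6a6/Hmgcll1, whereas Gas6 and Fgf7 in Sedentary and Mmp3 in Running were higher in another cluster. For Fn1 the Dpp4/Pi16 level was 739 for Old, 1045 for Young, 742 for Running and 436 for Sedentary, and there was no level above 245 in the other two clusters. Over the summed libraries the Dpp4/Pi16 level of Fn1, 813 CPM, was above the 429 of macrophage-like nuclei, the class that led for it. Cxcl14 in the Col6a6/Hmgcll1 cluster stood at 179.5 for Old, 274 for Young, 197 for Running and 186 for Sedentary, above both other clusters in each library. The make-up of the class differed, since the Cdh11/Lepr cluster held 57.8% of the FAP-like nuclei in Sedentary and 27.7% to 34.9% in the other three libraries.

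**Figure D2:**
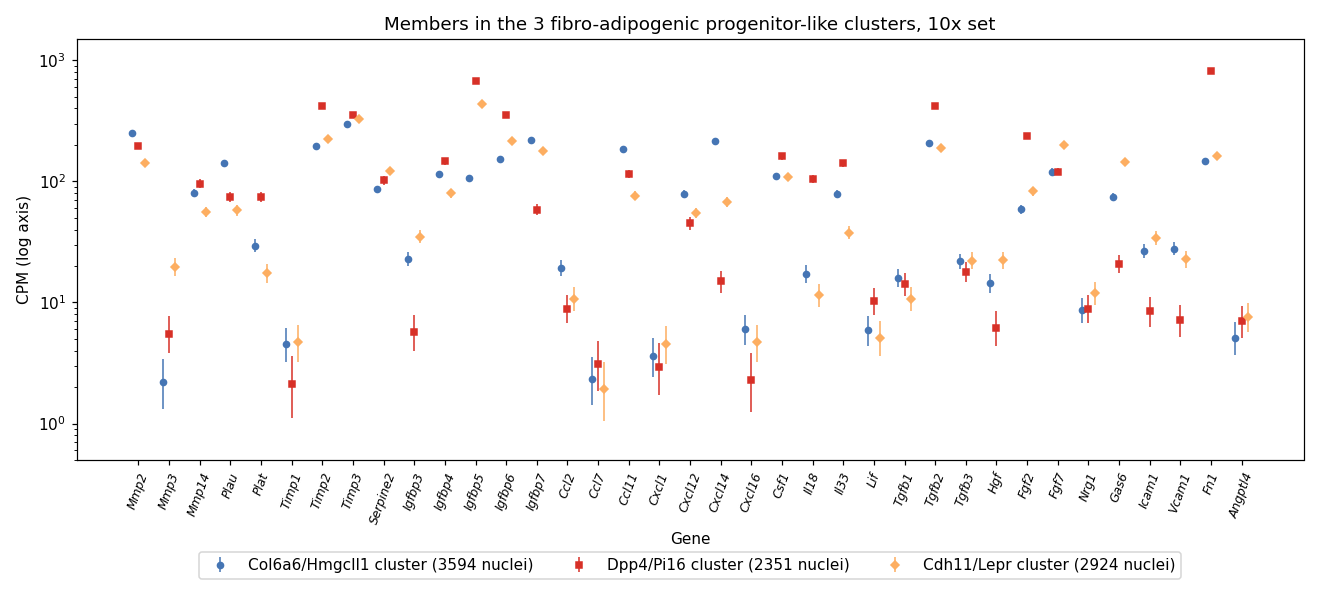
Level (CPM, log axis) of the members with enough UMIs in the 3 clusters of FAP-like nuclei, 10x set with 4 libraries summed. Bars are 95% Poisson intervals of the counts. Fn1 and Il18 sit highest in the Dpp4/Pi16 cluster (813 and 105 CPM), Cxcl14 in the Col6a6/Hmgcll1 cluster (214 CPM) and Mmp3 in the Cdh11/Lepr cluster (19.7 CPM).

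Old was compared with Young over all nuclei, the test of whether these factors differ with age in the tissue as a whole. None of the 44 genes passed edgeR's quasi-likelihood test at an adjusted p of 0.05, where 0% of the 22523 genes tested passed. At an unadjusted p below 0.05 there was 1 member (2.27%) against 505 of all genes (2.24%), and DESeq2 called 0 members. That member was Serpine2, with a log2 fold change of -1.31 (SE 0.56, adjusted p = 0.749 by edgeR). The other lower genes with the smallest p were Igfbp5 at -1.24 (SE 0.74) and Gas6 at -0.63 (SE 0.53), and the higher ones were Angptl4 at 1.73 (SE 0.80), Nrg1 at 1.92 (SE 0.92) and Hgf at 1.60 (SE 0.87), all log2 and with an adjusted p of 0.749 in edgeR. The median log2 fold change of the 44 genes was 0.53, that of all genes tested 0.28, and without Old replicate 1 the members' median was -0.22. Levels were compared within a library set, since the sets differed in platform and depth. By direction alone, 33 of 44 (75%) were higher in Old in both sets, against 53% of all genes, and 1 of 44 was lower in both, against 9.85%. Without Old replicate 2 the fold changes of Hgf and Gas6 turned, to -0.14 and 0.07, and without Young replicate 1 that of Igfbp5 did, to 0.02. In counts over whole libraries, fewer nuclei of a class and less RNA per nucleus cannot be told apart. FAP-like nuclei were 28.9% of nuclei in Old replicate 1 and 18.2% in Young replicate 1.

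Running was compared with Sedentary to ask whether training altered the same factors. No member passed the test in edgeR, as for 0% of the 22523 genes, nor in DESeq2, and at an unadjusted p below 0.05 there were 0 members and 107 genes (0.475%). The members with the smallest p were Il18 at a log2 fold change of 1.44 (SE 0.73), Fgf7 at 0.85 (SE 0.53) and Igfbp7 at 0.68 (SE 0.45) on the higher side, and Ccl7 at -2.77 (SE 1.45), Nrg1 at -1.50 (SE 0.93) and Igfbp2 at -1.42 (SE 1.23) on the lower, each with an adjusted p of 1 in edgeR. In Running 17 of 44 were higher in both sets, against 25.1% of all genes, and 10 were lower in both (Mmp9, Igfbp2, Igfbp4, Ccl7, Ccl8, Cxcl1, Il1a, Tgfb1, Tgfb2 and Fgf2), against 24.6%. The medians were 0.18 for the members and -0.05 for all genes, and without Sedentary replicate 1 the members' median was -0.28. Nrg1 turned to 1.13 without Sedentary replicate 1, the library of the Gm10800-led cluster. FAP-like nuclei were 19.6% of nuclei in Running replicate 1 and 7.50% in Sedentary replicate 1.

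**Figure D3:**
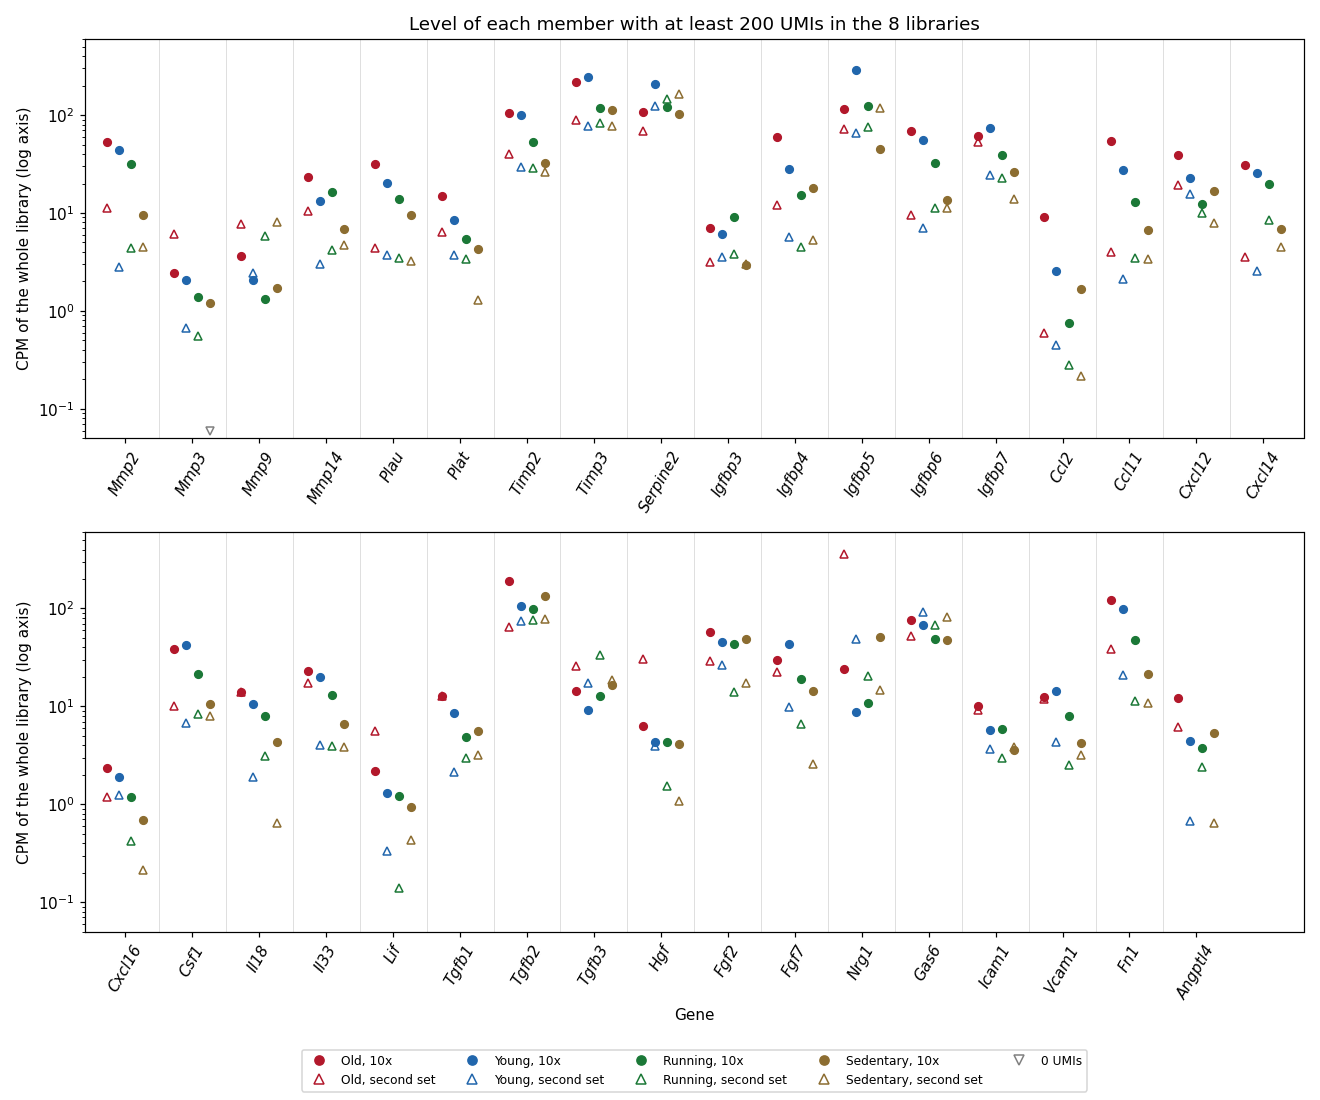
Whole-library level (CPM, log axis) of the 35 members with at least 200 UMIs, circles for the 10x set and triangles for the second set, coloured by group, with a grey triangle for 0 UMIs. Serpine2 lies lower in Old than in Young in both sets (108 against 208 and 69.1 against 124 CPM), and the Nrg1 triangle of Old stands at 360 CPM, above the other 7 libraries.

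Within FAP-like nuclei the level of most members was within 2-fold between Old and Young. Of the 37 members with at least 20 UMIs in either 10x library, 1 was at least 2-fold higher in Old (10.5% of all genes) and 2 at least 2-fold lower (2.74%), a rule of size with no test, since there is 1 library a group. Igfbp5 stood at 211 CPM in Old (202 to 222) and 662 in Young (643 to 682). Fgf7 stood at 112 (105 to 119.7) and 231 (219 to 242), and Ccl2 at 26.2 (22.8 to 29.9) and 8.399 (6.34 to 10.9). The Ccl2 UMIs came from 65 of 3382 nuclei in Old and 12 of 2151 in Young, with up to 30 and 17 in 1 nucleus. Poisson intervals take UMIs as independent, so they are too narrow for Ccl2. Igfbp5 was lower in Old in each of the 3 FAP-like clusters, at 57.7 against 167 CPM in Col6a6/Hmgcll1, 388 against 1259 in Dpp4/Pi16 and 224 against 804 in Cdh11/Lepr nuclei. Ccl2 differed most in the Col6a6/Hmgcll1 cluster, at 39.99 against 8.46 CPM, and was near equal in the Dpp4/Pi16 cluster, at 11.5 against 12.1. The second set went the other way for Igfbp5, with 426 CPM in the 24 FAP-like nuclei of Old (11 UMIs, interval 213 to 763) and 109 in the 103 of Young. Across both sets edgeR called 0 of the 30 members tested, against 0.203% of genes, with 1 member (Fn1, log2 fold change -1.11, SE 0.44, adjusted p = 1) and 293 genes at an unadjusted p below 0.05. These were 3.33% of members and 2.83% of genes. Fn1 had 0 UMIs in the FAP-like nuclei of Old replicate 2, which allows up to 143 CPM, against 396 in Young replicate 2.

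Between Running and Sedentary, 1 of 31 members was at least 2-fold higher in FAP-like nuclei of the 10x set (12.9% of all genes) and 1 at least 2-fold lower (1.86%). Igfbp3 stood at 37.5 CPM in Running (32.7 to 42.7) and 8.37 in Sedentary (4.01 to 15.4), on 10 UMIs in the latter, and Nrg1 at 12.2 and 27.6. In edgeR 0 of 30 members passed, against 0.0676% of genes, and Igfbp3 alone (3.33% of members) had an unadjusted p below 0.05 (log2 1.81, SE 0.83, adjusted p = 1), as had 268 genes (2.59%). Over the 30 members the median log2 fold change was 0.00 with running and -0.17 with age, beside 0.05 and -0.07 for all genes.

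In endothelial-like nuclei of the 10x set, Mmp2, Igfbp6, Tgfb2, Plau and Plat were at least 2-fold higher in Old among 22 members with enough UMIs (10.8% of all genes), and Igfbp3 was at least 2-fold lower (2.37%). Igfbp3, which these nuclei lead, stood at 44.99 CPM in Old (32.9 to 60.02) and 105 in Young (79.6 to 135). Tgfb2 stood at 154 and 67.4, and Igfbp6 at 42.1 and 7.09 on 43 and 4 UMIs. The 7 FAP markers, which are not genes of this class, summed to 1375 CPM in Old endothelial-like nuclei and 658 in Young, with none at 0, and their part in Mmp2, Igfbp6, Plau and Plat was not tested. Running was at least 2-fold above Sedentary for 3 of 11 members (10% of all genes), Igfbp3 at 83.5 against 31.8, Igfbp5 at 78.7 against 34.1 and Vcam1 at 46.6 against 20.4 CPM, and none was lower (2.57%). The marker sum was 954 CPM in Running and 354 in Sedentary. Among the 19 members tested by edgeR 0 passed in either comparison, as for 0% of the 7800 genes, with 1 member (Igfbp6, log2 2.95, SE 1.17, adjusted p = 1) and 116 genes at an unadjusted p below 0.05 with age, and 0 members and 142 genes with running. With age these were 5.26% of members and 1.49% of genes, and with running 1.82% of genes. The age effect was also compared between FAP-like and endothelial-like nuclei by an interaction term, which 0 of 28 members passed, against 0.021% of genes with age and 0% with running. In edgeR Igfbp6 alone (3.57% of members) had an unadjusted p below 0.05 with age (log2 difference -2.97, SE 0.98, adjusted p = 1), beside 151 genes (1.58%), and with running 0 members and 79 genes (0.828%) had.

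In macrophage-like nuclei the measurable genes that these nuclei lead were within 2-fold between Old and Young. Of 25 members with enough UMIs, 7 were at least 2-fold higher in Old (9.48% of all genes) and 1 at least 2-fold lower (2.04%). The 7 were Mmp2, Igfbp6, Igfbp7, Ccl11, Cxcl12, Cxcl14 and Vcam1, none of them led by macrophage-like nuclei. Ccl11 stood at 30.5 CPM against 2.44, on 50 and 2 UMIs, and Cxcl14 at 19.5 against 2.44. FAP markers summed to 974 CPM in these nuclei in Old and 314 in Young, with none at 0, and their part in the 7 genes was not tested. Ccl2, Ccl7, Cxcl16, Il18, Mmp9, Gas6 and Fn1 were within 2-fold, with Gas6 at 262 against 167 and Fn1 at 443 against 561 CPM. For Ccl2 and Ccl7 this rested on few nuclei. In Old, 1 nucleus held 30 of the 67 Ccl2 UMIs, and 1 held 15 of the 32 Ccl7 UMIs. Ccl2 was found in 4.70% of these nuclei in Old and 7.52% in Young, and Ccl7 in 2.61% and 6.21%. Nrg1 was lower in Old, at 11.6 against 80.6. In Running, 1 of 7 members was at least 2-fold higher (15.4% of all genes), Il18 at 64.8 against 21.99, and 1 lower (2.73%), Igfbp4 at 56.7 against 128, on 146 Sedentary nuclei. Macrophage-like nuclei were not found in the second set, so neither comparison has a test.

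In Type IIb-like nuclei Serpine2, Igfbp5 and Csf1 stood lower in Old than in Young, and several proteases, chemokines and other IGF binding proteins stood higher. Of 27 members with enough UMIs in the 10x set, 3 were at least 2-fold lower in Old (4.34% of all genes) and 16 at least 2-fold higher (16.5%), and the median log2 difference was 1.65 against 0.23 over all genes. The lower genes were Serpine2 at 119 CPM in Old (114 to 125) and 268 in Young (261 to 275), Igfbp5 at 67.2 (63.1 to 71.5) and 213 (207 to 219), and Csf1 at 6.44 (5.22 to 7.86) and 21.8 (19.8 to 23.9). Young was the highest 10x library for each of these 3 genes in Type IIb-like nuclei, and the second set gave Old the lower level too, at 75.4 against 115 for Serpine2, 56.6 against 83.5 for Igfbp5 and 0 against 12.5 for Csf1, on 56 nuclei in Old, where 0 UMIs of Csf1 allow up to 69.6 CPM and the intervals of the groups overlap. The higher genes included Ccl11 at 16.3 against 1.97, Igfbp4 at 13.2 against 1.64, Plau at 6.91 against 0.963 and Ccl2 at 2.19 against 0.144 (33 and 3 UMIs). Mmp2 (8.83 against 2.599), Mmp14 (3.39 against 0.818), Igfbp3 (2.06 against 0.5295), Igfbp6 (12.95 against 3.803), Igfbp7 (6.04 against 2.21) and Cxcl12 (10.4 against 1.88) were among them. The others were Cxcl14 (9.43 against 1.93), Il33 (2.19 against 0.674), Plat (2.52 against 0.433), Vcam1 (1.53 against 0.5295), Angptl4 (1.59 against 0.289) and Fn1 (16.6 against 5.295). None of these 16 was led by a class of muscle fibre nuclei, but neither were the 3 lower genes. Among all 44 genes Tgfb2 alone was, by neuromuscular junction-like nuclei, so this does not set the 16 apart. The 7 FAP markers summed to 367 CPM in Type IIb-like nuclei of Old and 103 in Young, with none at 0, which is 3.15% and 0.911% of their sum in FAP-like nuclei of the same library. The 13 members led by FAP-like nuclei stood in Type IIb-like nuclei at a median of 5.2% of their FAP-like level in Old and 1.36% in Young, and the markers stood higher in Old as well. The part of transcripts from other nuclei in these values was not tested.

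**Figure D4:**
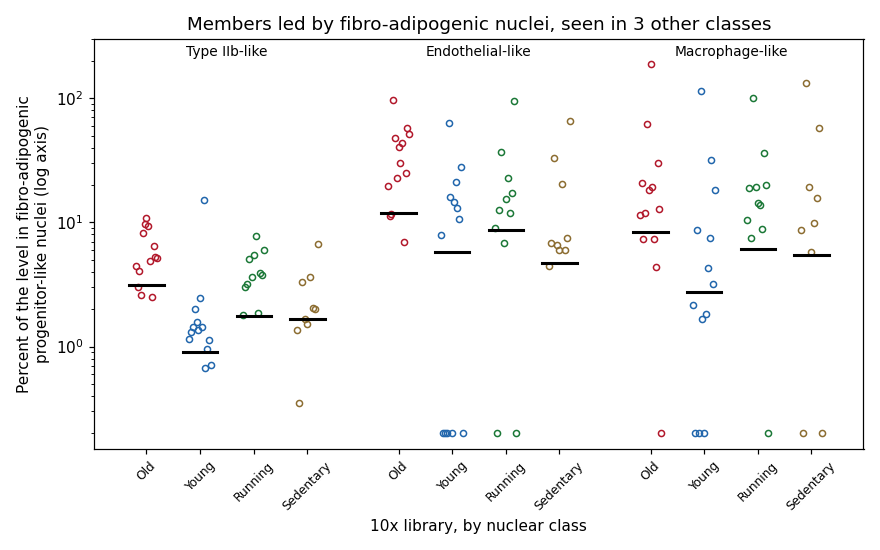
Level of the members led by FAP-like nuclei, as percent of their FAP-like level in the same 10x library (log axis, values of 0 drawn at the bottom), in Type IIb-like, endothelial-like and macrophage-like nuclei. Each circle is 1 gene and each black bar the same percentage for the sum of the 7 FAP markers, which in Type IIb-like nuclei is 3.15% in Old and 0.911% in Young.

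Across both library sets edgeR called 0 of 26 members in Type IIb-like nuclei with age, against 0.23% of the 13917 genes. At an unadjusted p below 0.05 there were 10 members (38.5%) and 1034 genes (7.43%), and the medians were 0.79 for the members and -0.07 for all genes. They were Ccl11, at a log2 fold change of 2.86 (SE 0.76, adjusted p = 0.123 by edgeR), Igfbp4, Cxcl12, Cxcl14, Fn1, Igfbp6 and Mmp2 on the higher side, and Csf1 at -1.78 (SE 0.60), Igfbp5 at -1.47 (SE 0.52) and Serpine2 at -1.11 (SE 0.40) on the lower. Without Old replicate 2 edgeR called 0 of the 26. Without Young replicate 2 edgeR called 5 of them, Ccl11, Igfbp4, Csf1, Igfbp5 and Serpine2, and without either Sedentary library Ccl11 alone. In Type IIa/IIx-like nuclei 0 of 24 members passed with age, against 0.0075% of genes, and 5 (20.8%, against 5.91% of genes) had an unadjusted p below 0.05. These were Serpine2 at -1.03 (SE 0.38), Igfbp5 at -1.32 (SE 0.58) and Timp3 at -0.93 (SE 0.41), lower in Old, and Cxcl14 and Igfbp4, both at 2.05, higher. Serpine2 and Igfbp5 thus had lower values in Old in both fast fibre classes, short of the test's threshold.

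With running, 8 of 20 members were at least 2-fold higher in Type IIb-like nuclei of the 10x set (14.6% of all genes) and 1 at least 2-fold lower (2.38%). Igfbp5 stood at 110.4 CPM in Running (106 to 115) and 29.5 in Sedentary (24.6 to 35.1), and in the second set the order was the opposite, at 87.9 and 133. Csf1 stood at 7.63 and 3.23 and Mmp14 at 2.87 and 0.231, and the other five were Mmp2, Igfbp3, Igfbp6, Ccl11 and Cxcl14. Nrg1 was lower in Running, at 1.89 against 6.92. FAP markers summed to 195 CPM in Running and 125 in Sedentary (1.77% and 1.66% of their FAP-like sum). In edgeR 0 of 26 members passed, as for 0% of genes, with 1 member (Cxcl14, log2 1.41, SE 0.64, adjusted p = 1) and 444 genes at an unadjusted p below 0.05. These were 3.85% of members and 3.19% of genes. Type IIa/IIx-like nuclei gave 0 of 24 members, also against 0% of genes, and 0 members and 344 genes (2.58%) at an unadjusted p below 0.05. Without Sedentary replicate 2 edgeR called Igfbp5 in both fast classes. Myotendinous junction-like nuclei gave 0 of 10 members in edgeR with age (0.0895% of genes) and with running (0.0746%), and neuromuscular junction-like nuclei 0 of 6 with running (0.026%), with 0 members at an unadjusted p below 0.05 in each, against 298, 281 and 162 genes (4.44%, 4.19% and 4.21%).

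**Figure D5:**
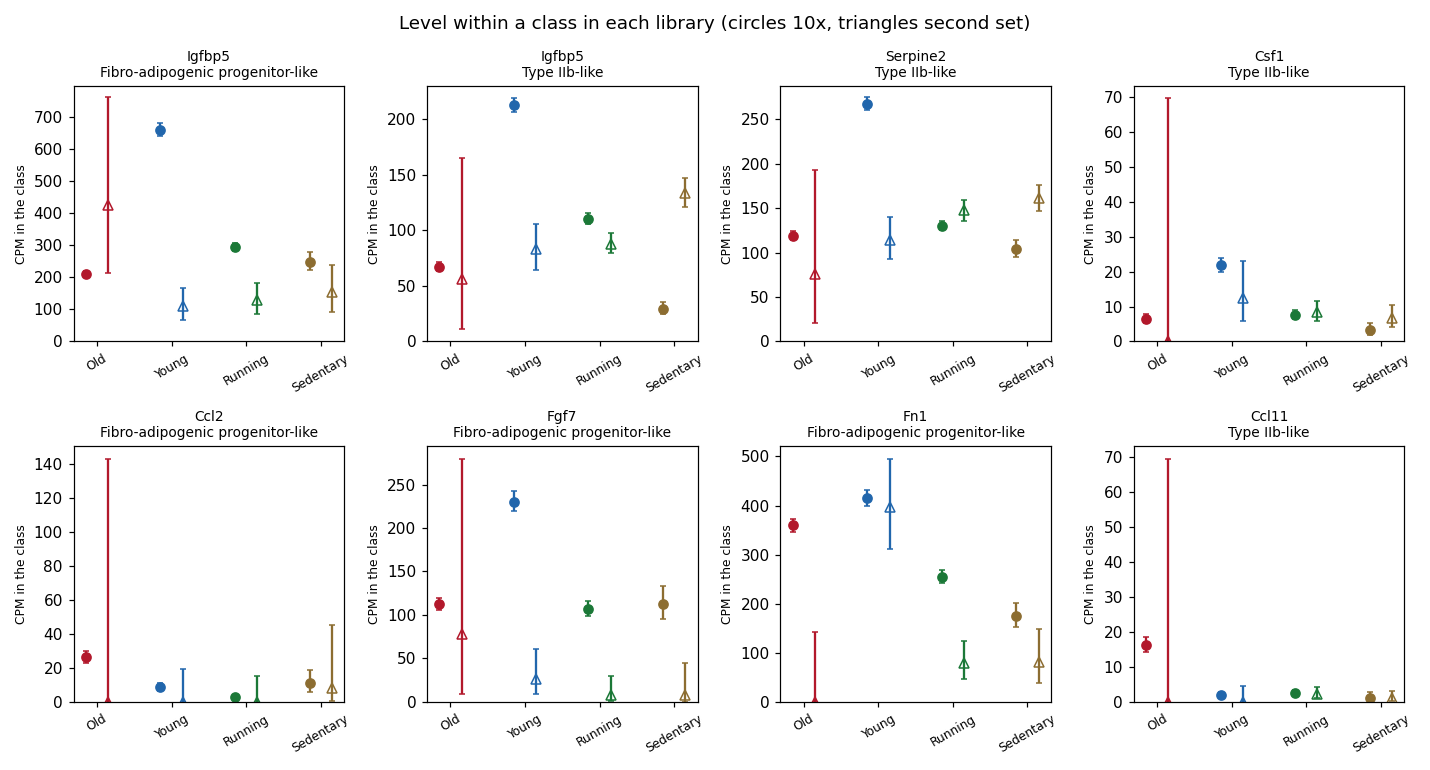
Level within a class (CPM) of 8 gene and class pairs in each library, circles for the 10x set and triangles for the second set, with 95% Poisson intervals of the counts. Igfbp5, Serpine2 and Csf1 in Type IIb-like nuclei are highest in the Young 10x library (213, 268 and 21.8 CPM), and the intervals of the Old second-set library are the widest.

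The partners of these factors were tested in the same fits. Of 44 genes for receptors of the members, 43 were tested over all nuclei, of 82 other secretory genes 70, and of 38 regulators of the NF-kB pathway 38. In edgeR and in DESeq2 0 passed in each of the 3 lists in both comparisons, and at an unadjusted p below 0.05 in edgeR there were 2 receptors with age and none in the other lists or with running. The share of all genes below that p was 2.24% with age and 0.475% with running. The median log2 fold changes with age over all nuclei were 0.49, 0.41 and -0.12, beside 0.28 for all genes, and with running 0.10, 0.00 and 0.16, beside -0.05. Over all nuclei the regulators of the pathway thus lay below the median of all genes with age, and the receptors and secretory genes above it. Within classes the order varied. The regulators lay above all genes in FAP-like nuclei (0.17 against -0.07) and below them in Type IIa/IIx-like nuclei (-0.22 against -0.03). The secretory genes lay below all genes in endothelial-like nuclei (-0.16 against -0.11) and above them in myotendinous junction-like nuclei (0.06 against -0.05).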

How the data were processed

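Nuclei of gastrocnemius muscle were profiled in 8 libraries, 1 10x and 1 DNBelab C library for each of the 4 groups. As deposited by the authors, each file holds a UMI count per gene and nucleus with no normalization, made with Cell Ranger 6.1.2 for the 10x set per the labels and with PISA for the second set, per the study's methods, both on mm10, and Seurat 4.1.1 is named for the later steps. Whether intronic reads and strand were used in counting is not given in the sources used here. Beside the overlaps named above, Spp1 overlaps Gm42793 on the same strand. Timp1, Igfbp7, Ccl2, Cxcl16, Il1a, Il1b, Il18, Tgfb2, Tgfb3, Fgf7, Icam1, Vcam1, Gas6, Nrg1 and Fn1 overlap another gene on the opposite strand. The replicate numbers follow accession order and coincide with the library set.

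Of 65280 deposited nuclei, 64803 with over 200 and under 6000 genes and under 6% mitochondrial UMIs were kept. CPM was computed without 13 mitochondrial and 86 ribosomal protein genes. Each set was clustered with scanpy 1.11.5 on 2000 variable genes (members left out), 30 components, 20 neighbours and Leiden resolution 1.0. Clusters were named from 22 marker lists, of which 4 served as a check only and gave no names. The limits were a score of at least 1.5, a margin of 1.0 and 3 markers, set after the clusters were seen. For the Type IIb-like and Type IIa/IIx-like lists any positive score with 3 markers sufficed, without a margin. Clusters led by long genes (median over 300 kb) were given no name. Doublets were left in. A class leads for a gene where its CPM over the summed 10x libraries is highest among named classes with 50 nuclei and 20 UMIs of the gene.

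Counts were summed per library, and per class with at least 20 nuclei, and tested with edgeR 4.0.16 (TMM, filterByExpr, quasi-likelihood F test, group and library set as terms, Benjamini-Hochberg over all genes, 0.05), with DESeq2 1.42.0 as an alternative. The fit over all nuclei has 3 residual degrees of freedom. Single 10x libraries were compared by a 2-fold rule at 20 UMIs or more in the higher library, with a library at 0 set to 3 UMIs, and with exact 95% Poisson intervals. All 44 members are accounted for. Levels are given by library for those with at least 200 UMIs, and fold changes for those called, else for the 3 higher and 3 lower with the smallest p, and for members past 2-fold in the classes compared. The members and lists were chosen with earlier results of these data known. Gene positions are from GENCODE vM21 on GRCm38. The all-nuclei and FAP-like fits and the interaction, but no other class fit, were also tried on generated counts with known changes. At the spread between these libraries the fit over all nuclei called none of those changes, the interaction few, and the FAP-like fit mainly the larger ones, so that 0 calls do not show that levels were alike.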

Additional observations from a re-analysis of the deposited data

How the results depend on the processing

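The number of members called over all nuclei was 0 under every alternative tried (DESeq2, upper-quartile scaling, no filter, no library set term, the 4 libraries of a comparison, and each library left out). Replicate numbers coincide with the library set, so the main fit holds the replicate block, and without that block the medians of the members were 0.38 (Old against Young) and 0.17 (Running against Sedentary), with no call gained. The Running median was 0.49 in its own 4 libraries. With each library left out in turn, the medians ran from -0.22 to 0.63 (Old against Young) and -0.28 to 0.62 (Running against Sedentary). The log2 fold changes with age ran from -0.14 (without Old replicate 2) to 2.39 for Hgf, -2.08 to 0.02 (without Young replicate 1) for Igfbp5, -1.88 to 0.07 (without Old replicate 2) for Gas6, 0.15 to 2.68 for Nrg1 and -2.37 to -0.78 for Serpine2, and with running from -2.55 to 1.13 (without Sedentary replicate 1) for Nrg1. The causes were not tested.

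Leaving out 1 library, members called in Type IIb-like nuclei with age ran from 0 to 5 (5 without Young replicate 2), and with running from 0 to 1 in Type IIb-like and in Type IIa/IIx-like nuclei (1 without Sedentary replicate 2, Igfbp5).

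The number of members led by Schwann cell-like nuclei was 1 at resolution 2.0, 1 with the top 6% of doublet scores left out and 1 with libraries weighted equally. That led by tenocyte-like nuclei was 3 and 2 under the last pair of settings. With 1 library left out, tenocyte-like nuclei led for 1 to 5 members, pericyte-like for 1 to 2, Schwann cell-like for 0 to 2, and B cell-like, T cell-like and neuromuscular junction-like nuclei for 0 to 1 each, while FAP-like nuclei led for 12 to 15 and macrophage-like for 8 to 10. At resolution 0.5 no leading class changed and at 2.0 it changed for 7 members. It changed for Serpine2, Igfbp4, Icam1, Gas6 and Nrg1 without Old replicate 1, for Timp2, Igfbp5, Igfbp6, Il33 and Tgfb1 without Young replicate 1, for Timp3, Serpine2, Igfbp6 and Gas6 without Running replicate 1, and for Igfbp6, Tgfb2 and Nrg1 without Sedentary replicate 1.

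At a minimum of 50 UMIs in place of 20, fewer genes are eligible for the 2-fold rule. The count higher in Old was then 10 in Type IIb-like, 3 in macrophage-like and 1 in endothelial-like nuclei. That higher in Running was 1 in endothelial-like and 0 in macrophage-like nuclei, and that lower in Running was 0 in FAP-like, macrophage-like and Type IIb-like nuclei. With doublets left out, the count lower in Running was 0 in macrophage-like and 1 in endothelial-like nuclei.

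Depth limits the 9 members under 200 UMIs, all values of the second set in classes other than Type IIb-like and Type IIa/IIx-like nuclei, and all values of Old replicate 2 outside its unnamed nuclei.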
